A study of Mus musculus with 6 samples.

Results

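The 2′-5′-oligoadenylate synthetase (OAS) family was followed in murine renal tubular epithelial cells (mTECs) exposed to bacterial lipopolysaccharide (LPS). Its 8 genes Oas1a, Oas1b, Oas1c, Oas1g, Oas2, Oas3, Oasl1 and Oasl2 were taken by their mouse symbols in GENCODE M21 from the 22442 genes of the expression table. RNA-seq libraries were made from 6 cultures in 2 groups of 3, labelled LPS and LPSKD, and every culture received LPS at 20 μg/ml for 24 h. The LPS cultures had been transfected beforehand with a negative control and the LPSKD cultures with an RNA directed against Stat3, so that no library shows the cells without LPS. The methods describe an immortalised line and the labels magnetically sorted cells. How far apart the replicate cultures were set up is not given in the sources used here, so the p-values measure the spread between these libraries, which may be technical. The comparison asks which transcripts depend on Stat3, a transcription factor activated by cytokines, during the response to LPS.

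OAS enzymes bind double-stranded RNA, the usual sign of a virus in a cell, and then join ATP into short 2′-5′-linked oligoadenylates, called 2-5A. These act as a signal inside the cell that leads to the cutting of cellular and viral RNA. The OAS genes are classic interferon-stimulated genes, switched on by transcription factors that bind an interferon-stimulated response element in their promoters. The mouse carries a cluster of Oas1 duplicates next to Oas2 and Oas3, and a separate pair of OAS-like genes, Oasl1 and Oasl2, which add ubiquitin-like domains to the synthetase fold.

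Stat3 itself, the targeted gene, had overlapping values in the groups, at 33.7 ± 2.02 FPKM in the LPS libraries and 33.4 ± 2.35 FPKM in the LPSKD libraries (SD, n = 3), a log2 fold change of −0.01 with an adjusted p of 0.944 in limma. FPKM divides the fragments of a gene by its length and by the size of the library. The groups are therefore named by their labels, and every direction below is that of the libraries labelled LPSKD against those labelled LPS. The library totals, recovered from the values, lay between 24084827 and 25422171 fragments. The epithelial markers Cdh1, Epcam, Krt8 and Krt18 were expressed strongly, with Cdh1 between 131 and 138 FPKM. The segment markers Slc34a1, Umod and Aqp2 were at 0 in all libraries. Of 11 tested tubular markers, 4 were called higher in the LPSKD libraries by limma (Cdh16, Pax2, Pax8 and Aqp1, log2 fold changes of 0.27, 0.60, 0.39 and 0.93). Krt18 was called lower (−0.15). Of all tested genes, 3.23% were called in either direction. The groups did not overlap for 7 of the 11 markers, beside 23.8% of all tested genes. Among 7 immune cell markers, Csf1r was called higher and none lower (1 lower at an unadjusted p under 0.05, and 0 by voom). Cd68 averaged 13.7 FPKM in LPS and 11.1 FPKM in LPSKD libraries without overlap (log2 fold change −0.30, adjusted p = 0.197, limma), Lyz2 was between 17.3 and 27.3 FPKM, Ptprc was 0.880 FPKM in LPS and 0.818 FPKM in LPSKD libraries on average, and Itgam was near 0. The summed immune markers ranged from 58.3 to 64.7 FPKM in the LPS libraries and from 61.4 to 74.8 FPKM in the LPSKD libraries. Csf1r made up the largest part of this sum, at 24.4 FPKM in LPS and 33.3 FPKM in LPSKD libraries on average. Every other immune marker of the list had a lower mean in the LPSKD libraries. The tested endothelial and fibroblast markers were not called (limma, 0 also at an unadjusted p under 0.05 and 0 by voom). Among the tested immune and fibroblast markers, LPSKD replicate 1 had the lowest value of the 6 libraries for all but Csf1r and Pdgfra. Col1a1, for example, was at 3.02, 4.99 and 7.33 FPKM in LPSKD replicates 1 to 3. The part of these differences in the results below was not tested.

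All 8 genes lie on chromosome 5 in GRCm38. Oasl2 (chr5:114896936-114912234) and Oasl1 (chr5:114923240-114937915), both on the plus strand, form one run. The other run holds Oas2 (chr5:120730333-120749853), Oas3 (chr5:120753098-120777661), Oas1c (chr5:120800194-120812514), Oas1g (chr5:120876142-120887613) and Oas1a (chr5:120896256-120907521) on the minus strand, and Oas1b (chr5:120812635-120824163) on the plus strand. Oas1b, which GENCODE lists as a polymorphic pseudogene, therefore starts head to head with Oas1c, and 120 bases separate their annotated starts.

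The promoters of the Oas1 genes and of Oas3 are shown because interferon-responsive transcription runs through them. They were read from RefSeq promoter windows of GRCm38.p6 (250 bases before to 50 after each start), in which 6 of the 8 genes had an entry. Each stretch is written 5′ to 3′ on the strand of the gene. Those of Oas1a and Oas1g end just before the RefSeq start, and that of Oas3 ends further upstream. Oas1b had no entry, so its stretch was taken from the window of Oas1c and ends just before the GENCODE start of Oas1b. Capitals mark matches to the core of the interferon-stimulated response element (GAAA, any 2 bases, GAAA), searched on both strands.
Oas1a, chr5:120907526-120907585, minus strand: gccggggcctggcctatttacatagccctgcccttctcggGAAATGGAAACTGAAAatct
Oas1g, chr5:120887614-120887673, minus strand: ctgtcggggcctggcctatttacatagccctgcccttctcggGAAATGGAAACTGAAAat
Space between Oas1c and Oas1b, chr5:120812515-120812634, plus strand: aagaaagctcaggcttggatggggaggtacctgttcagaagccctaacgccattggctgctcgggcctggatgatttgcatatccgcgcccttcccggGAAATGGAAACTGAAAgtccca
Oas3, chr5:120777690-120777749, minus strand: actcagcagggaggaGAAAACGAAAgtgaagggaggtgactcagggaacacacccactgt

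In Oas1a, Oas1g and the space before Oas1b, 2 overlapping core matches formed the same run of 16 bases, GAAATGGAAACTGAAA. It began 20 bases before the RefSeq start of Oas1a, 18 before that of Oas1g and 22 before the GENCODE start of Oas1b. The window of Oas1c held the run on the opposite strand, at the Oas1b side. The run was picked after the windows had been read, and it was present in 7 of 32851 promoter windows (0.0213%), which belonged to Oas1a, Oas1c, Oas1g, Apol9a and Apol9b. The core alone was present in 1131 windows (3.44%), and in 4 of the 6 windows of the family, those of Oas1a, Oas1c, Oas1g and Oas3. The windows of Oasl1 and Oasl2 held no match to these letters. The looser STAT site TTCNNNGAA, present in 2726 windows (8.30%), was matched in Oas1a only, 98 bases before the start, and the stricter TTCCNGGAA (1.15% of windows) in no window of the family. These matches describe letters in a window and show no binding.

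The Oas1 duplicates are so alike that fragments can be divided wrongly between them. The coding sequences of Oas1a and Oas1g matched at 1065 of 1101 bases (96.7%), against 81.1% of aligned bases between Oas1a and Oas1b and 76.5% between Oas1a and Oas1c. Of the 31-base stretches in the coding sequence, 60.9% of those of Oas1a and 59.2% of those of Oas1g also occurred in another gene, for the most part in each other. The share was 41.2% for Oas1c, 5.1% for Oas1b, 0.2% for Oasl1 and 0% for Oas2, Oas3 and Oasl2. At 100 bases, 26.9% of the stretches of Oas1a and 25.8% of those of Oas1g stayed shared, and 9.9% of those of Oas1c, with the gene model Gm43069. The longest identical run of Oas1a and Oas1g was 231 bases. Of their 36 differences, 16 fell within coding bases 468 to 527, counted from the A of the start codon, and these are shown because fragments over them tell the pair apart. The stretch crosses from exon 2 to exon 3 in both genes, and capitals mark the differing bases.
Oas1a, spliced from chr5:120902000-120905600, minus strand: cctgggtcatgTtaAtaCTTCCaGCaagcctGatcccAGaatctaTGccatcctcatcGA
Oas1g, spliced from chr5:120882015-120885777, minus strand: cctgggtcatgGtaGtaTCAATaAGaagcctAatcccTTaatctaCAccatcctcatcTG

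The family was expressed at a low level even with LPS. Mean levels in the LPS libraries ran from 0.571 FPKM for Oasl1 to 4.90 FPKM for Oasl2, above 31.1% to 44.1% of the 16837 genes detected in any library. In the LPSKD libraries all 8 means were lower, and 4 genes (Oas1a, Oas1b, Oas3 and Oasl2) passed the limma test, which took log2(FPKM + 0.1) of genes with a mean of at least 0.5 FPKM and a Benjamini-Hochberg adjusted p under 0.05 over 11723 genes. No member was called higher, by limma on FPKM, at an unadjusted p under 0.05 (0 of 8) or by voom on the recovered fragments (0 of 8). In the same fit 1.66% of all tested genes were called lower and 3.23% in either direction. Of the 8 genes, 7 had groups that did not overlap, with the lower values in LPSKD, which was so for 13.2% of tested genes. The median log2 fold change was −1.65 over the members and −0.01 over all tested genes. These counts are a description, since 6 of the 8 genes were under 0.5 FPKM in the LPSKD libraries and passed the filter through the LPS libraries, and Oas1a and Oasl2 alone were above it in both groups. Without any filter, 3 members were called lower (Oas1a, Oas3 and Oasl2), beside 0.837% of 16837 genes. In bulk libraries, fewer expressing cells and less RNA per cell cannot be told apart.

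**Figure D1:**
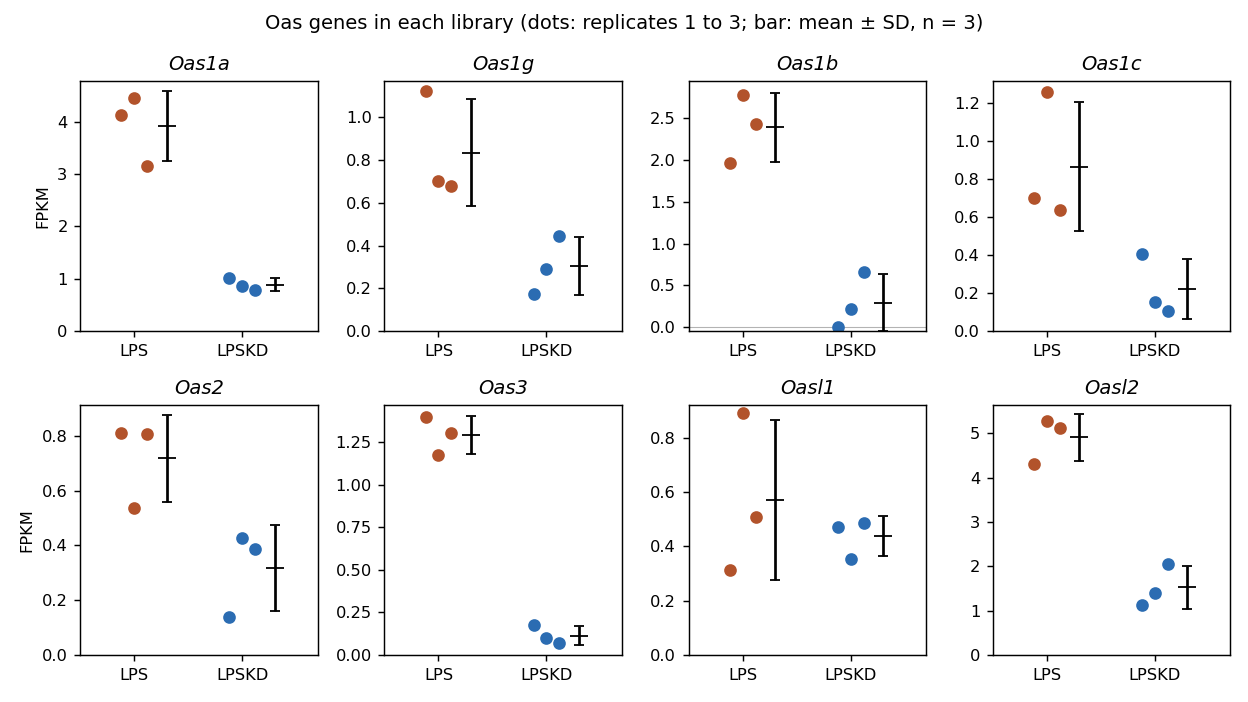
FPKM of each Oas gene (vertical axis, linear, a scale of its own in each panel) in the 3 LPS and 3 LPSKD libraries, with dots for libraries and bars for mean ± SD. The groups are separate in 7 panels, and in the Oasl1 panel they overlap.

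Oas1a encodes an active synthetase and carried the most fragments of the Oas1 cluster. It was measured at 4.12, 4.45 and 3.16 FPKM in LPS replicates 1 to 3 and at 1.02, 0.867 and 0.786 FPKM in LPSKD replicates 1 to 3. Every LPS library lay above every LPSKD library. The means, 3.91 ± 0.672 and 0.891 ± 0.118 FPKM (SD, n = 3), were 4.39-fold apart, and the log2 fold change of −2.01 (SE 0.21, 95% interval from −2.48 to −1.54) had an adjusted p of 0.00157 in limma.

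Oas1g, its near twin and also an active synthetase, was about as scarce as Oas1c. It was read at 1.12, 0.701 and 0.679 FPKM in the LPS libraries and at 0.175, 0.290 and 0.446 FPKM in the LPSKD libraries, the latter from 5, 8 and 13 fragments. The groups did not overlap, but the difference was not called by limma (log2 fold change −1.23, SE 0.42, adjusted p = 0.182). Because fragments of the pair cannot be assigned with certainty, their fragments were also summed. The sums were 145, 142 and 104 in the LPS libraries and 33, 31 and 35 in the LPSKD libraries, 3.95-fold fewer.

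Oas1b, known for the flavivirus resistance that its full-length allele confers, had the widest interval in the family. Its LPS libraries held 1.96, 2.78 and 2.43 FPKM (55, 78 and 67 fragments) and its LPSKD libraries 0, 0.221 and 0.662 FPKM (0, 6 and 19 fragments). The count of 0 in LPSKD replicate 1 allows a level of up to 3 fragments, or 0.106 FPKM, by counting error alone. The LPSKD libraries thus differed widely among themselves and all lay under the LPS libraries. The log2 fold change was −3.09 (SE 0.66, 95% interval from −4.58 to −1.59) with an adjusted p of 0.0447 in limma, and the call was lost when LPS replicate 1, 2 or 3 or LPSKD replicate 2 was left out (adjusted p from 0.0763 to 0.150) and without the filter (adjusted p = 0.0904). The size of the change rests on LPSKD replicate 1 and on the pseudocount, as the log2 fold change was −2.32 without that library, and −1.41 with a pseudocount of 1 (adjusted p = 0.00865, limma). LPSKD replicate 1 was also the library with the lowest values of most tested immune and fibroblast markers, and a link between the 2 was not tested.

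Oas1c, the head-to-head neighbour of Oas1b, was read at 0.703, 1.26 and 0.641 FPKM in the LPS libraries. Its LPSKD libraries held 0.406, 0.153 and 0.109 FPKM, from 11, 4 and 3 fragments. All 3 LPS libraries were higher, and the log2 fold change of −1.64 (SE 0.49) was not called (adjusted p = 0.136, limma).

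A sum of FPKM over the 4 Oas1 genes depends little on how fragments were divided among them, as their lengths are alike (1086 to 1146 bases). Their summed level was 7.91, 9.19 and 6.91 FPKM in the LPS libraries and 1.599, 1.53 and 2.003 FPKM in the LPSKD libraries, means of 8.0 ± 1.14 and 1.71 ± 0.255 FPKM (SD, n = 3). The groups were 4.68-fold apart and did not overlap (exact permutation test, two-sided, p = 0.1, the smallest p that 3 against 3 libraries allow). Summed fragments of the 4 genes, which do not depend on the division among them, gave 4.65-fold. Oas1c also shares 31-base stretches with genes outside both sums, such as Oas1e (18.8% of its stretches) and Gm43069 (15.8%). Neither sum accounts for these.

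Oas2 and Oas3 are longer proteins built of repeated OAS units, and Oas3 senses long double-stranded RNA. Oas3 was read at 1.40, 1.17 and 1.302 FPKM in the LPS libraries and at 0.175, 0.0970 and 0.0689 FPKM in the LPSKD libraries. The LPS libraries lay close together, from 100 to 119 fragments, while the LPSKD libraries held 15, 8 and 6. With means of 1.29 ± 0.112 and 0.114 ± 0.0552 FPKM (SD, n = 3), Oas3 was 11.3-fold lower, the largest ratio of means in the family, and counting error alone bounds the ratio of LPSKD to LPS between 0.0581 and 0.129 (exact 95% binomial interval). The log2 fold change of −2.73 (SE 0.40) had an adjusted p of 0.00849 in limma. The call was lost without LPS replicate 3 (log2 fold change −2.72, adjusted p = 0.0626), and a pseudocount of 1 in place of 0.1 reduced the log2 fold change to −1.04, with the call kept.

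Oas2 held 0.811, 0.535 and 0.809 FPKM in the LPS libraries and 0.138, 0.428 and 0.389 FPKM in the LPSKD libraries. Its LPSKD replicates 2 and 3 came close to LPS replicate 2, although the groups did not overlap. The means were 2.26-fold apart, and the log2 fold change of −1.03 (95% interval from −2.07 to 0.00) was not called (adjusted p = 0.285, limma). Its counts were 47, 31 and 46 fragments in the LPS libraries and 8, 24 and 23 in the LPSKD libraries.

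Of the OAS-like genes, Oasl2 was called lower and Oasl1 was not. Oasl2, which keeps synthetase activity, was the most abundant member at 4.31, 5.28 and 5.12 FPKM in the LPS libraries. It held 1.13, 1.39 and 2.06 FPKM in the LPSKD libraries, all below the LPS libraries. The means, 4.90 ± 0.520 and 1.52 ± 0.481 FPKM (SD, n = 3), were 3.22-fold apart, with a log2 fold change of −1.66 (SE 0.22, 95% interval from −2.17 to −1.15) and an adjusted p of 0.00605 in limma. Both Oasl2 and Oas1a stayed past the threshold under every alternative tried and with any 1 library left out.

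Oasl1, which has lost synthetase activity and is known to restrain the translation of Irf7, was read at 0.314, 0.890 and 0.507 FPKM in the LPS libraries and at 0.470, 0.352 and 0.487 FPKM in the LPSKD libraries. The LPSKD values fell within the range of the LPS values. No difference was detectable at this depth of 12 to 34 fragments per library (log2 fold change −0.24, adjusted p = 0.837, limma), and the 95% interval from −1.24 to 0.76 leaves room for a sizeable change in either direction.

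**Figure D2:**
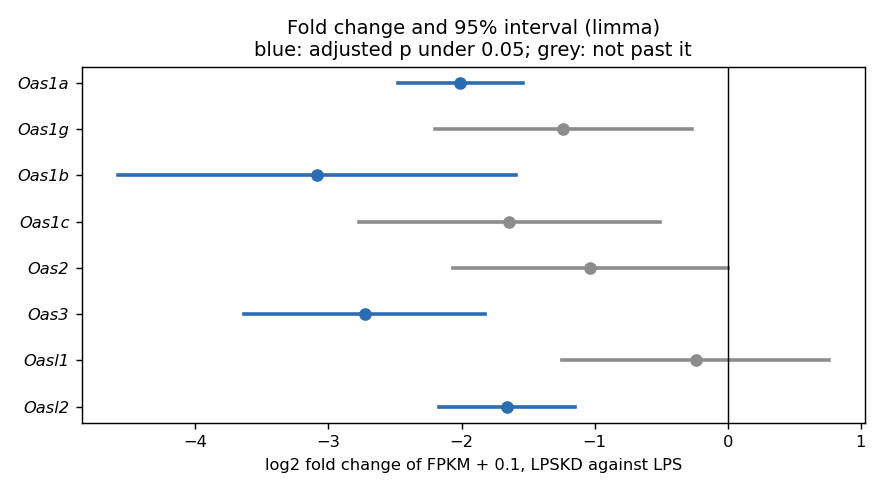
Log2 fold change of FPKM + 0.1 (horizontal axis, LPSKD against LPS) for each Oas gene, with lines for the 95% intervals of limma and blue for an adjusted p under 0.05. The interval of Oas1b is the widest, those of Oas1a and Oasl2 are the narrowest, that of Oas2 just reaches 0, and that of Oasl1 spans it.

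The order of the levels changed little at the top. In the LPS libraries, Oasl2 and Oas1a led with overlapping ranges, followed by Oas1b and Oas3, each without overlap with the gene before it. The remaining neighbours in the order Oas3, Oas1c, Oas1g, Oas2 and Oasl1 overlapped. In the LPSKD libraries Oasl2 led, then Oas1a, then Oasl1, without overlap between these neighbours, and Oas2, Oas1g, Oas1b, Oas1c and Oas3 followed with overlapping ranges. Oas3 came next after Oas1b in the LPS libraries and last in the LPSKD libraries, while Oasl1 was last in the LPS libraries and next after Oas1a in the LPSKD libraries.

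As a sum, the family held 14.7, 17.1 and 14.6 FPKM in the LPS libraries and 3.51, 3.79 and 5.01 FPKM in the LPSKD libraries, a 3.77-fold difference of the means without overlap. Of this sum, Oas3 made up 8.41% ± 1.36 in the LPS libraries and 2.98% ± 1.85 in the LPSKD libraries (SD, n = 3). The share of Oasl1 was 3.60% ± 1.55 and 10.8% ± 2.26, and that of Oas1b 15.4% ± 1.82 and 6.35% ± 6.63. The groups did not overlap for these 3 shares (exact permutation test, two-sided, p = 0.1 each, adjusted p = 0.267 over the 8 genes), which is the smallest p the design allows, so that none could pass the threshold. On fragments in place of FPKM the shares of Oas1b overlapped (exact permutation p = 0.2). Oasl2 (31.7% and 36.6%) and Oas1a (25.2% and 22.5%) remained the major members in both groups, with exact permutation p of 0.2 and 0.7.

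**Figure D3:**
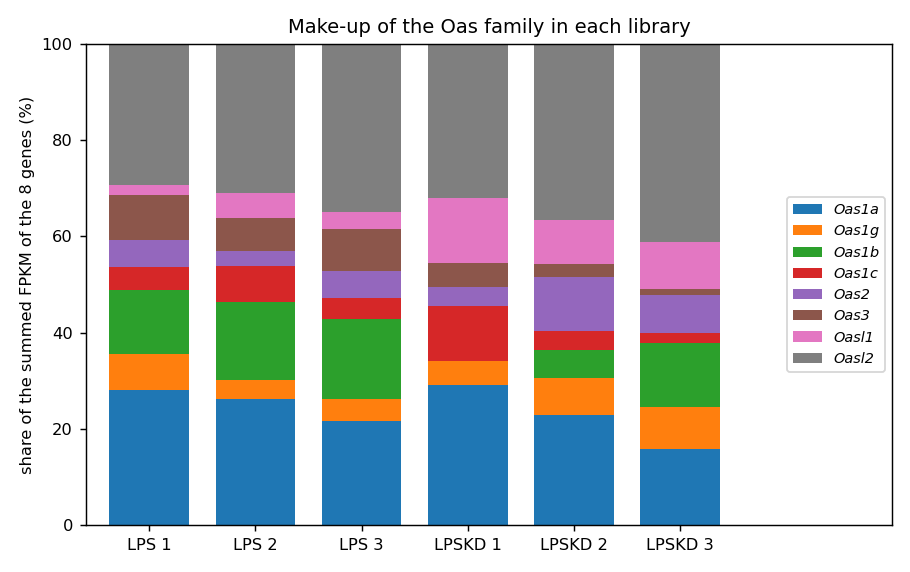
Share of each Oas gene in the summed FPKM of the 8 genes (vertical axis, percent), stacked for each of the 6 libraries. Oas3 takes 6.87% to 9.47% in the LPS libraries and 1.38% to 5.00% in the LPSKD libraries, and Oasl1 2.13% to 5.22% and 9.28% to 13.4%.

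Other genes around 2-5A were followed with a list of 8 genes, of which none of the 3 tested was called by limma (0 at an unadjusted p under 0.05, and 0 by voom on fragments). As 3.23% of all tested genes were called in either direction, 3 genes are too few to differ from that share. Abce1, known for its role in ribosome recycling, averaged 205 and 201 FPKM in the LPS and LPSKD libraries. Pde12 and Akap7, which degrade 2-5A, had log2 fold changes of 0.05 and −0.10, with adjusted p of 0.723 and 0.627 in limma. Enpp1, another enzyme that cleaves 2-5A, was under the filter at 0 to 0.0591 FPKM. The remaining duplicates Oas1d, Oas1e, Oas1f and Oas1h were listed at 0 in all 6 libraries.

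Of 13 genes that carry the interferon signal to OAS promoters, 10 were tested and 3 were called lower, beside 1.66% of all tested genes. None was called higher (1 higher at an unadjusted p under 0.05, and 0 by voom). Stat2 and Irf9 belong to the complex that binds the response element. Irf9 fell by 1.94 on the log2 scale, from 21.2 to 5.48 FPKM, and Stat2 by 0.52, from 14.8 to 10.3 FPKM. Irf7, which drives further interferon production, was at 9.50, 8.72 and 10.6 FPKM in the LPS libraries and at 1.03, 1.49 and 2.40 FPKM in the LPSKD libraries, a log2 fold change of −2.55. The interferon receptor genes Ifnar1, Ifnar2 and Ifnlr1, the kinase genes Jak1 and Tyk2, and Irf1 and Irf3 were not called, with log2 fold changes between −0.19 and 0.25. The interferon genes Ifnb1, Ifnl2 and Ifnl3 were under the filter. Ifnb1 was at 0.147, 0.147 and 1.20 FPKM in the LPS libraries (2, 2 and 16 fragments) and at 0, 0 and 0.0720 FPKM in the LPSKD libraries (0, 0 and 1 fragments). Most of its fragments came from LPS replicate 3, and the difference was not called without the filter (adjusted p = 0.277, limma).

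Another list held 10 genes for enzymes and sensors of foreign nucleic acid, most of them bound by double-stranded RNA. Of the 9 tested, 5 were called lower, beside 1.66% of all tested genes (6 lower at an unadjusted p under 0.05, and 5 by voom). The 5 genes called by limma were Ddx58 (RIG-I), Ifih1 (MDA5), Eif2ak2 (PKR), Adar and Tlr3, with log2 fold changes of −1.69, −1.41, −0.74, −0.44 and −0.37. Dhx58, Mavs, Zbp1 and Tmem173 were not called, although the groups of Zbp1 did not overlap (log2 fold change −0.63, adjusted p = 0.135, limma). Ddx58 averaged 19.3 FPKM in the LPS libraries and 5.92 FPKM in the LPSKD libraries, and Ifih1 2.66 and 0.938 FPKM.

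**Figure D4:**
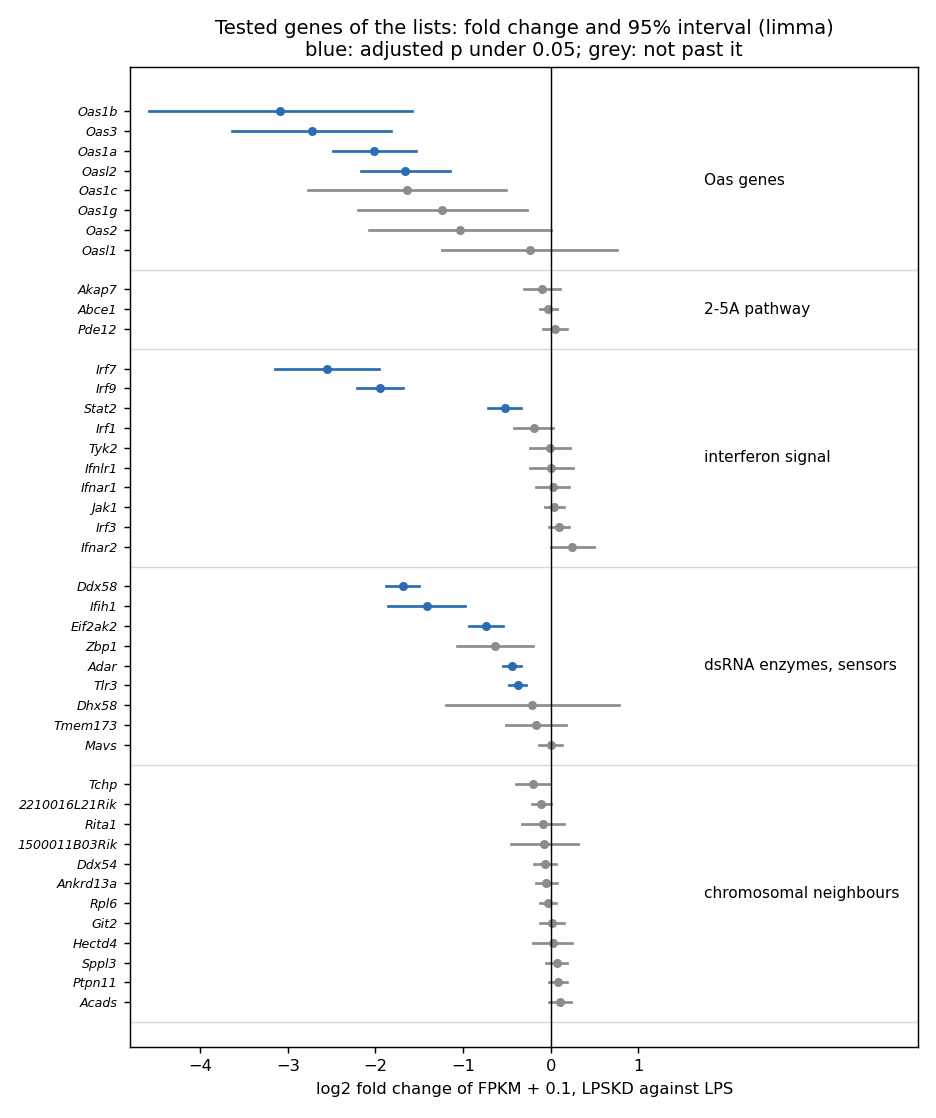
Log2 fold change of FPKM + 0.1 (horizontal axis, LPSKD against LPS) with 95% intervals from limma for the tested genes of each list, blue for an adjusted p under 0.05. Blue genes appear among the Oas genes, the interferon signal and the double-stranded RNA sensors, all to the left of 0. None appears among the 3 tested genes of the 2-5A pathway or the 12 tested chromosomal neighbours, too few to differ from the 3.23% of all tested genes called.

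The genes around the family on chromosome 5 were not called. Of the 5 nearest protein-coding genes in the table on each side of both runs, 19 are reported here, among them the duplicate Oas1d, at 0. Of these, 12 were tested and none passed the threshold by limma (1 at an unadjusted p under 0.05, and 0 by voom). With 3.23% of all tested genes called, 12 genes are too few to show a difference from that share. The groups did not overlap for 3 of the 12, beside 23.8% of all tested genes in either direction. The median log2 fold change was −0.04, with values from −0.20 for Tchp to 0.11 for Acads. Ptpn11, on the far side of the Oas1 cluster, was at 109 to 119 FPKM in the LPS libraries and 118 to 125 FPKM in the LPSKD libraries. Its groups overlapped (log2 fold change 0.09, adjusted p = 0.358, limma).

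The genes whose levels over the 6 libraries most resembled the mean profile of the family were sought in the whole table, by the root mean square difference of centred log2 values. Among the 5 closest were Ddx58 (0.138), Irgm1 (0.161), Ifih1 (0.165) and Parp14 (0.167), against a median of 0.868 over the tested genes. The likeness is a description over 6 libraries in which the difference between the groups dominates.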

How the data were processed

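The authors deposited FPKM values, 1 for each gene in each of the 6 libraries. The submitters' processing notes name Bowtie 0.12.2, HISAT2 2.0 and StringTie 1.3.0, and the builds mm8 and GRCh38.p13 (a human build), with no role, while the gene identifiers are mouse. Of 22442 identifiers, 22399 had a symbol in GENCODE M21 (GRCm38). FPKM multiplied by the coding length plus 0 to 10 bases and a library total gave whole fragments, within 0.01, for 97.8% of the 16837 genes above 0. Of 10232 genes over 100 fragments, 100% were whole at these totals and 0% with totals raised by 0.1%. Lengths were chosen to give whole fragments at the first totals and were not searched again, so this contrast follows largely from the tolerance. Totals lay between 24084827 and 25422171 fragments, and floors and intervals from fragments cover counting error only. Tests used limma 3.58.1 in R 4.3.3 (lmFit, eBayes with trend) on log2(FPKM + 0.1), which understates changes of low genes, for genes with a mean of at least 0.5 FPKM, with Benjamini-Hochberg adjustment over 11723 genes. In simulated data the fit recovered 97% of genes changed by 1 and 100% of genes changed by 2 on the log2 scale. It also called 7 unchanged genes. The simulation set the same spread beyond counting error for every gene and drew changed genes from all tested levels. Its shares therefore do not give the recovery of genes as thin as the members. Exact permutation tests were two-sided over 20 assignments. Members, lists, motifs and the rule for named genes (members, Stat3, the genes of the lists, and the 5 genes of closest profile) were chosen with earlier results of these data known. Some genes covered by the lists and rules are not reported here, and lists are counted without them. Ptpn11 and the 16-base run were picked after their values were seen. Alternatives were other pseudocounts and filters, quantile normalization, median centring, no trend, a replicate block, voom on the recovered fragments, and the omission of each library.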

Additional observations from a re-analysis of the deposited data

How the results depend on the processing

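All 8 members kept a negative log2 fold change under each of the alternatives that tested them. A filter at a mean FPKM of 1 left 3 members tested (all 3 called), and some omissions of a library left 6 or 7. Oas1a and Oasl2 kept their calls throughout, and Oas1c, Oas1g, Oas2 and Oasl1 gained none. Oas1b had log2 fold changes of −4.36 with a pseudocount of 0.01 (adjusted p = 0.139, limma), −1.41 with a pseudocount of 1 (adjusted p = 0.00865), −3.09 without a filter (adjusted p = 0.0904) and −3.09 without trend (adjusted p = 0.134), and from −3.78 to −2.32 with 1 library left out. Oas3 ranged from −2.93 to −2.57 with 1 library left out. The number of members called was 3 or 4 with all 6 libraries and 2 to 4 with 1 left out, 2 without LPS replicate 3. The share of Oas3 was 5.43 points lower in LPSKD on FPKM, and the difference was −12.1 points on fragments, where its length is not divided out. Over all genes, 379 were called, 140 without trend, 598 with voom, and from 158 to 356 with 1 library left out. Apart from these constructions, the cause of each change was not tested. The 4 members not called held 3 to 47 fragments per library, and called members were as thin in LPSKD libraries, with 0 to 19 for Oas1b and 6 to 15 for Oas3.

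No shared effect of the replicate number was detectable. The correlations of the deviations of same-numbered libraries were −0.016, −0.0039 and −0.043, and those of other pairs ran from −0.043 to 0.058. Whether same-numbered cultures were set up together is not given in the sources used here, and these correlations cannot show it. With the replicate number as a block, 213 genes were called and Oas1b was at −3.09 with an adjusted p of 0.0587 (limma), and the calls of the other 7 members did not change.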
